A study of Mus musculus with 6 samples.

Results

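The collagen genes were examined in RNA sequencing of mouse colon, in which mice lacking NSD2 in the intestinal epithelium (NSD2∆IE) were compared with controls (NSD2fl/fl). Every gene whose symbol consists of Col, a type number, the letter a and a chain number was taken, which gave 43 of the 24517 genes listed. By type, 10 were fibrillar collagens, 6 were basement membrane collagens of type IV, 9 were fibril-associated collagens with interrupted helices (FACIT), 4 were transmembrane collagens and 6 were beaded filament collagens of type VI. The other genes were 2 multiplexins, 3 short-chain network collagens, the anchoring fibril gene Col7a1, and Col26a1 and Col28a1. Each group held 3 libraries of whole colon RNA, and the diet of all mice, for 16 weeks by the labels, was rich in fat and cholesterol (HFCD). The study's own text gives a longer feeding period for the transcriptome. NSD2fl/fl mice carry Nsd2 alleles flanked by loxP sites, which NSD2∆IE mice carry too and from which Villin-Cre removes NSD2 in epithelial cells, on a C57BL/6J background. NSD2 is a chromatin enzyme that dimethylates histone H3 at lysine 36. The deletion is driven in epithelium, whereas most collagen in the gut wall is made by fibroblasts, smooth muscle and other stromal cells that Villin-Cre does not target. Neither the labels nor the study's methods tie a library to a named animal, so p-values measure the spread between these libraries.

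Collagens are secreted or membrane-bound proteins whose chains wind into a triple helix. Fibrillar collagens of types I, III and V form the cables that give the submucosa its strength, and FACIT collagens lie on the surface of these fibrils. Type IV chains form the sheet-like network of basement membranes beneath the epithelium and around muscle cells, vessels and nerves, and type VI forms fine beaded filaments next to it. Transmembrane collagens stay anchored in the plasma membrane by a single hydrophobic segment and can be shed from the cell surface.

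The library totals were alike, from 38041832 to 38604680 counts, and 16347 genes had enough counts to be tested. Nsd2, the targeted gene, had 1840 to 2455 counts in NSD2fl/fl and 914 to 1139 counts in NSD2∆IE libraries. Xist, which female cells make, had at most 4 counts in any NSD2fl/fl library and at least 21217 in every NSD2∆IE library, and 4 Y-linked genes (Uty, Kdm5d, Eif2s3y and Ddx3y) summed to at least 5058 counts in NSD2fl/fl and at most 1 in NSD2∆IE. The study's methods describe male littermates, so the NSD2∆IE libraries went against that description, and genotype and sex cannot be told apart in any difference given here. All 10 epithelial markers on the list used here, Cdx2 and Vil1 among them, were detected in every library. These markers are not particular to the colon, so they do not test the colon label. Cdx2 ranged from 2974 to 10782 counts between libraries. The leading principal component of the tested genes (51.03% of variance) did not separate the groups. It set NSD2∆IE replicate 1 with NSD2fl/fl replicates 1 and 3, and NSD2fl/fl replicate 2 with NSD2∆IE replicates 2 and 3. Cdx2 was lower in every library of the first set than in every library of the second.

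Collagen mRNA was dominated by a few genes. Levels of different genes were compared as FPKM, a fragment count scaled to gene length and library size. The summed FPKM of the 43 genes was 389, 285 and 312 in NSD2fl/fl and 309, 327 and 371 in NSD2∆IE, so the groups overlapped. The 3 most abundant genes, Col3a1, Col1a2 and Col6a1, held 48.8% to 54.6% of this sum, and the 10 most abundant held 81.9% to 88.1%. Fibrillar collagens took 47.5% to 56.3% of the sum, beaded filament collagens 19.2% to 25.3% and basement membrane collagens 13.5% to 14.9%. FACIT collagens took 5.47, 3.70 and 4.28% in NSD2fl/fl and 7.27, 6.59 and 6.67% in NSD2∆IE. Transmembrane collagens took 0.673, 0.825 and 0.631% in NSD2fl/fl and 1.51, 2.14 and 1.79% in NSD2∆IE. For the FACIT and the transmembrane genes every NSD2∆IE share lay above every NSD2fl/fl share. A mean of at least 10 FPKM was reached by 7 genes, 18 lay between 1 and 10 FPKM and 18 below 1 FPKM.

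**Figure D1:**
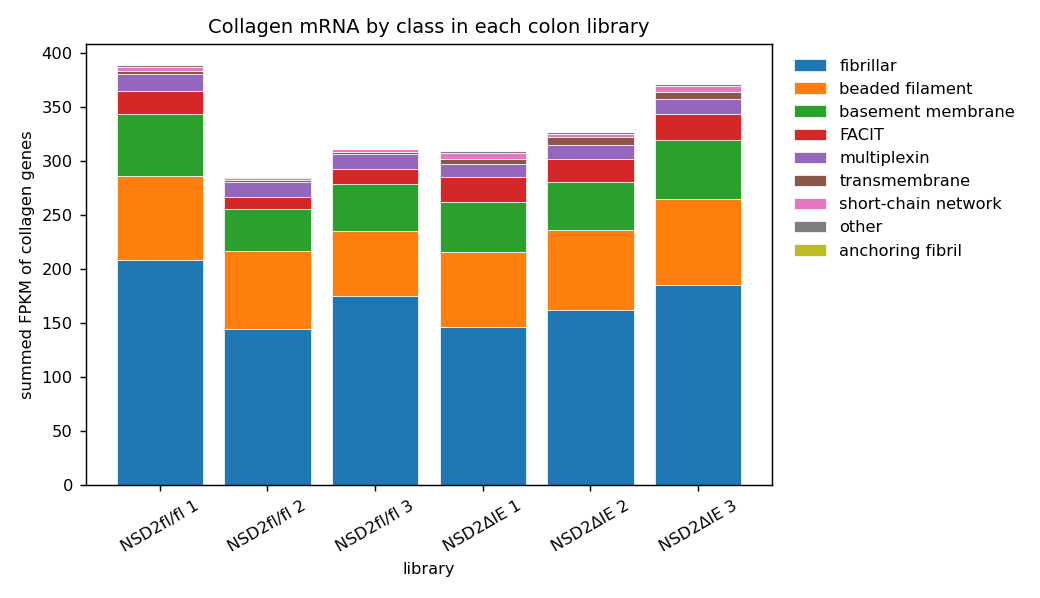
Summed FPKM of the collagen genes in each library, stacked by class, for NSD2fl/fl replicates 1 to 3 and NSD2∆IE replicates 1 to 3. Fibrillar, beaded filament and basement membrane genes make up most of every bar, and the bars of the groups overlap, from 284.9 to 388.8 FPKM in NSD2fl/fl and from 308.9 to 371.3 FPKM in NSD2∆IE.

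To ask which collagen genes differed after loss of epithelial NSD2, the 37 members with enough counts were read from an edgeR quasi-likelihood fit of all 16347 genes. Col23a1, Col25a1, Col14a1, Col27a1, Col11a1, Col9a3 and Col28a1 were higher in NSD2∆IE, by 1.66-fold to 5.25-fold, and Col15a1 and Col6a5 were lower, by 1.41-fold and 1.86-fold. These 9 had an unadjusted p under 0.05 and a log2 ratio of NSD2∆IE to NSD2fl/fl beyond 0.32 in either direction. The study's results state this p and fold threshold for the genes that were lower after knockout. Of the members tested, 18.9% were past it as higher, where 8.05% of all genes were, and 5.41% as lower, where 2.21% of all genes were. After edgeR's Benjamini-Hochberg adjustment 0 members were under 0.05, the lowest value being 0.302, and 9 had an unadjusted p under 0.05, as did 11.1% of all genes. The targeted gene Nsd2, with a log2 ratio of -1.23 ± 0.159 (SE, unadjusted p = 0.000133), also had an edgeR adjusted p of 0.302. Of all genes tested, 5 (0.0306%) were under 0.05 after adjustment, which were Xist and the 4 Y-linked genes named above. DESeq2, run as an alternative, gave 2 members an adjusted p under 0.05, Col23a1 and Col25a1, where it called 2.79% of all genes. The other 28 members did not pass the threshold, among them the 7 of highest level. The median log2 ratio of the tested members was -0.017, beside -0.041 over all genes tested, and 18 of them, 48.6%, lay above 0, where 43.7% of all genes did. By class, the median was 1.38 for 3 transmembrane, 0.47 for 7 FACIT, -0.14 for 10 fibrillar, -0.086 for 6 basement membrane and -0.037 for 5 beaded filament genes tested. RNA from whole tissue cannot tell fewer cells of a type from less RNA per cell.

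Both counts depended on single libraries, as did those over all genes. Without NSD2fl/fl replicate 3, and also without NSD2∆IE replicate 3, 3 members were higher, which were Col14a1, Col23a1 and Col25a1 in both fits. Of all genes, 5.55% and 4.06% were higher in these fits. The number lower was 5 without NSD2fl/fl replicate 2, where Col3a1, Col5a2 and Col7a1 were added, and 1, Col15a1, without NSD2fl/fl replicate 3 or NSD2∆IE replicate 1. The shares of all genes that were lower in these fits were 3.57%, 2.68% and 3.72%, in the same order. Col14a1, Col23a1, Col25a1 and Col15a1 stayed past the threshold in each of the 6 fits that left out 1 library. With the principal component split added to the model, 7 were higher and 2 lower, and Col8a1 and Col9a2 stood in place of Col11a1 and Col9a3. Of all genes, 8.98% were higher and 3.32% lower in that fit.

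**Figure D2:**
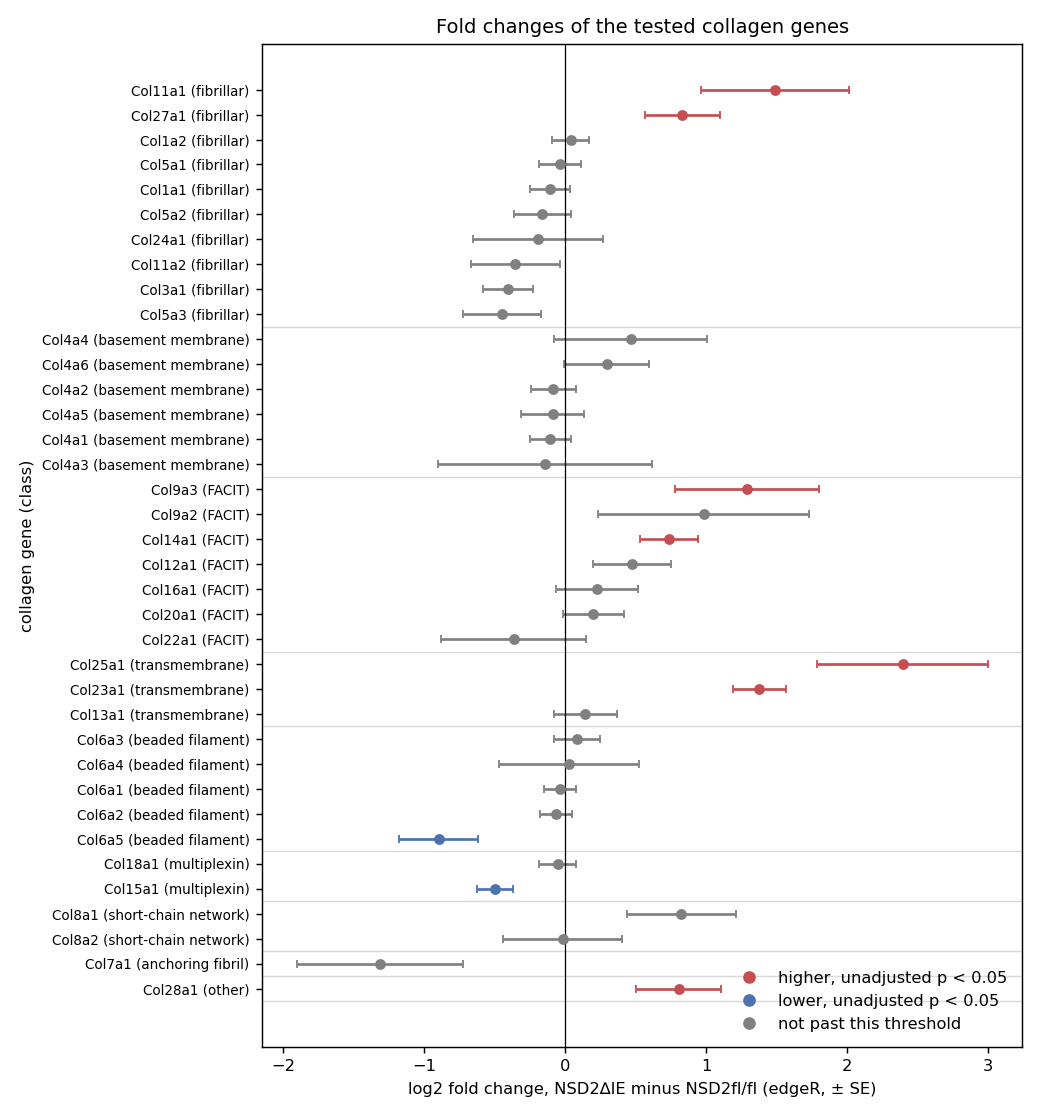
Log2 ratio (edgeR, NSD2∆IE minus NSD2fl/fl, ± SE) of the 37 tested collagen genes, ordered by class, in red where higher and in blue where lower at an unadjusted p under 0.05. The transmembrane genes Col25a1 and Col23a1 lie at 2.39 and 1.38, whereas the type IV genes lie between -0.14 and 0.46.

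Among the transmembrane collagens, Col23a1 and Col25a1 were higher in NSD2∆IE and Col13a1 did not pass the threshold. Col23a1, on chromosome 11 (chr11:51289679-51583925, GRCm38), encodes the alpha chain of type XXIII collagen. It had 12.9, 12.8 and 10.4 CPM in the NSD2fl/fl libraries and 24.2, 36.5 and 33.1 CPM in the NSD2∆IE libraries, where CPM is the count scaled to library size with TMM factors. All 3 NSD2∆IE values lay above all 3 NSD2fl/fl values, the NSD2∆IE replicate 1 value being the lowest of its group. Over all genes, 11.4% were separated between the groups in this way as higher. The means were 12.1 ± 1.40 CPM in NSD2fl/fl and 31.3 ± 6.40 CPM in NSD2∆IE (SD, n = 3 per group), a 2.59-fold difference and a log2 ratio of 1.38 ± 0.189 (SE, unadjusted p = 0.000192, edgeR adjusted p = 0.302). DESeq2 gave an adjusted p of 1.64e-06, the lowest over 16 alternatives. The highest, 0.99 without NSD2∆IE replicate 3, was shared in that fit by Col25a1, Col14a1 and Col15a1. The unadjusted p of Col23a1 was at most 0.00127 over the alternatives. The log2 ratio was at most 1.54 (without NSD2∆IE replicate 1) and at least 1.249 (without NSD2∆IE replicate 2) when each library was left out in turn. Its level, 2.19, 1.98 and 1.63 FPKM in NSD2fl/fl and 4.16, 6.28 and 5.99 FPKM in NSD2∆IE, was far below the 71.9 to 115 FPKM of Col3a1.

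Col25a1 (chr3:130180358-130599884) encodes type XXV collagen, known from neurons and as a component of amyloid plaques. It had 0.389, 0.424 and 0.168 CPM in the NSD2fl/fl libraries and 0.782, 2.88 and 1.54 CPM in the NSD2∆IE libraries, from 6 to 114 counts per library. The groups did not overlap, although the NSD2∆IE values were spread more than those of NSD2fl/fl. It was 5.25-fold higher, at a log2 ratio of 2.39 ± 0.604 (SE, unadjusted p = 0.00581, edgeR adjusted p = 0.303). DESeq2 gave an adjusted p of 0.0179, and over 16 alternatives the adjusted p ranged from 0.0179 to 0.99 (without NSD2∆IE replicate 3). Col13a1, whose product sits at neuromuscular junctions and other adhesion sites, had 2.10, 2.23 and 2.02 CPM in the NSD2fl/fl libraries and 2.47, 2.14 and 2.41 CPM in the NSD2∆IE libraries. Its values overlapped, with a log2 ratio of 0.14 ± 0.225 (SE, unadjusted p = 0.543, edgeR adjusted p = 0.835). Col17a1, a hemidesmosome protein of squamous epithelium, had 0 to 11 counts and was not tested.

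The bases just upstream of the start site that RefSeq gives for Col23a1 and Col25a1 are shown because these were the members with an adjusted p under 0.05 in DESeq2. Each run covers 250 bases on the plus strand of GRCm38.p6, and capitals mark matches, on either strand, to 4 short motifs that were searched for. The GC box, which SP1 family factors bind, was searched as GGGCGG. The box that nuclear factor Y binds was searched as its own name, CCAAT. The core promoter element that sets the start site, the TATA box, was searched as TATAAA. The element that SMAD proteins bind downstream of TGF-beta was searched as CAGACA.
Col23a1, chr11:51289670-51289919: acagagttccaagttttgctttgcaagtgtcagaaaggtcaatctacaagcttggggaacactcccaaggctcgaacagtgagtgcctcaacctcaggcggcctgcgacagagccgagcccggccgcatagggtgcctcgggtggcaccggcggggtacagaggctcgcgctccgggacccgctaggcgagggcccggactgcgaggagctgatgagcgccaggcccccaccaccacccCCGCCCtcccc
Col25a1, chr3:130180595-130180844: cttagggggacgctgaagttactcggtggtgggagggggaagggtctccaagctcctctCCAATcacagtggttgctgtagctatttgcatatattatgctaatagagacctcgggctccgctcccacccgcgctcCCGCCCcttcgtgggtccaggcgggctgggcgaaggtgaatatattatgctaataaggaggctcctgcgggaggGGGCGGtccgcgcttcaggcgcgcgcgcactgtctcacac
No exon of GENCODE M21 overlaps either window, although the longest RefSeq span of each gene begins upstream of the start used here. The Col25a1 window lies wholly within the span of its gene, and the Col23a1 window does so except for its first bases. The Col23a1 window holds 1 GC box, on the opposite strand, and the Col25a1 window holds 2 GC boxes and 1 CCAAT box. Both hold 18 CG pairs, beside a median of 6 over all windows of this length and of 9.5 over the collagen windows. Their GC contents are 66% and 60.4%, beside a median of 52.4% over all windows and of 59% over the collagen windows. Over the 38 windows found for 35 of the collagen genes, 57.9% hold a GC box, where 32.7% of all 32851 windows do, 34.2% hold a CCAAT box (33.8% of all), 13.2% a TATA box (12.4%) and 23.7% the CAGA element (17.1%). These matches describe letters in a window, and the factors were not measured here.

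Of the fibrillar collagens, Col27a1 and Col11a1 were higher in NSD2∆IE, and the abundant chains of types I, III and V did not pass the threshold. Col3a1, the most abundant collagen gene, encodes the chain of type III collagen found with type I in compliant tissues. It had 632, 445 and 595 CPM in the NSD2fl/fl libraries and 389, 413 and 463 CPM in the NSD2∆IE libraries. The groups overlapped, with the lowest value in NSD2∆IE replicate 1 and NSD2fl/fl replicate 2 within the NSD2∆IE range, and it had a log2 ratio of -0.40 ± 0.177 (SE, unadjusted p = 0.0584, edgeR adjusted p = 0.463). Without NSD2fl/fl replicate 2 its log2 ratio was -0.54, at an unadjusted p of 0.0113. With all 6 libraries, Col3a1 was past the threshold as lower with DESeq2 (-0.40, unadjusted p = 0.0312, adjusted p = 0.312). The same held for edgeR without a filter on low counts (-0.43, unadjusted p = 0.0459). In 13 of 16 alternatives its unadjusted p was not under 0.05.

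Col1a1 and Col1a2 encode the chains of type I collagen, the main structural collagen of the body. Col1a2 had 235, 201 and 203 CPM in the NSD2fl/fl libraries and 196, 228 and 232 CPM in the NSD2∆IE libraries, and Col1a1 had 153, 141 and 134 CPM in the NSD2fl/fl libraries and 109.6, 143 and 144 CPM in the NSD2∆IE libraries. For both genes the ranges of the groups overlapped. The log2 ratio was 0.039 ± 0.130 (SE, adjusted p = 0.927) for Col1a2 and -0.11 ± 0.141 (SE, adjusted p = 0.800) for Col1a1, the latter above 0 with library totals alone and in both fits of log2 FPKM. Col5a1, Col5a2 and Col5a3, whose type V chains lie inside type I fibrils and set their diameter, had log2 ratios of -0.036, -0.16 and -0.45, with adjusted p-values of at least 0.603. Col3a1 and Col5a2 are neighbours on chromosome 1.

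Col27a1 (chr4:63214009-63334991) encodes a fibrillar collagen known from cartilage. It had 10.95, 7.60 and 7.21 CPM in the NSD2fl/fl libraries and 11.98, 13.5 and 20.3 CPM in the NSD2∆IE libraries, so that all NSD2∆IE values lay above all NSD2fl/fl values and NSD2∆IE replicate 3 was the highest. Its log2 ratio was 0.83 ± 0.266 (SE), at an unadjusted p of 0.0176 (adjusted p = 0.350), and it lost the unadjusted call without NSD2fl/fl replicate 3 and without NSD2∆IE replicate 3. Col11a1, whose type XI chain helps to start fibrils, had 0.545, 0.367 and 0.337 CPM in the NSD2fl/fl libraries and 0.530, 1.84 and 1.16 CPM in the NSD2∆IE libraries, from 12 to 73 counts per library. Here NSD2∆IE replicate 1 lay below NSD2fl/fl replicate 1, and the other NSD2∆IE libraries lay above all controls. Its log2 ratio was 1.49 ± 0.527 (SE, unadjusted p = 0.0265, adjusted p = 0.383) and lost the unadjusted call in 8 of 16 alternatives. Col11a2 and Col24a1 had log2 ratios of -0.35 and -0.19, with adjusted p-values of 0.715 and 0.896. Col2a1 was not analysed here.

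**Figure D3:**
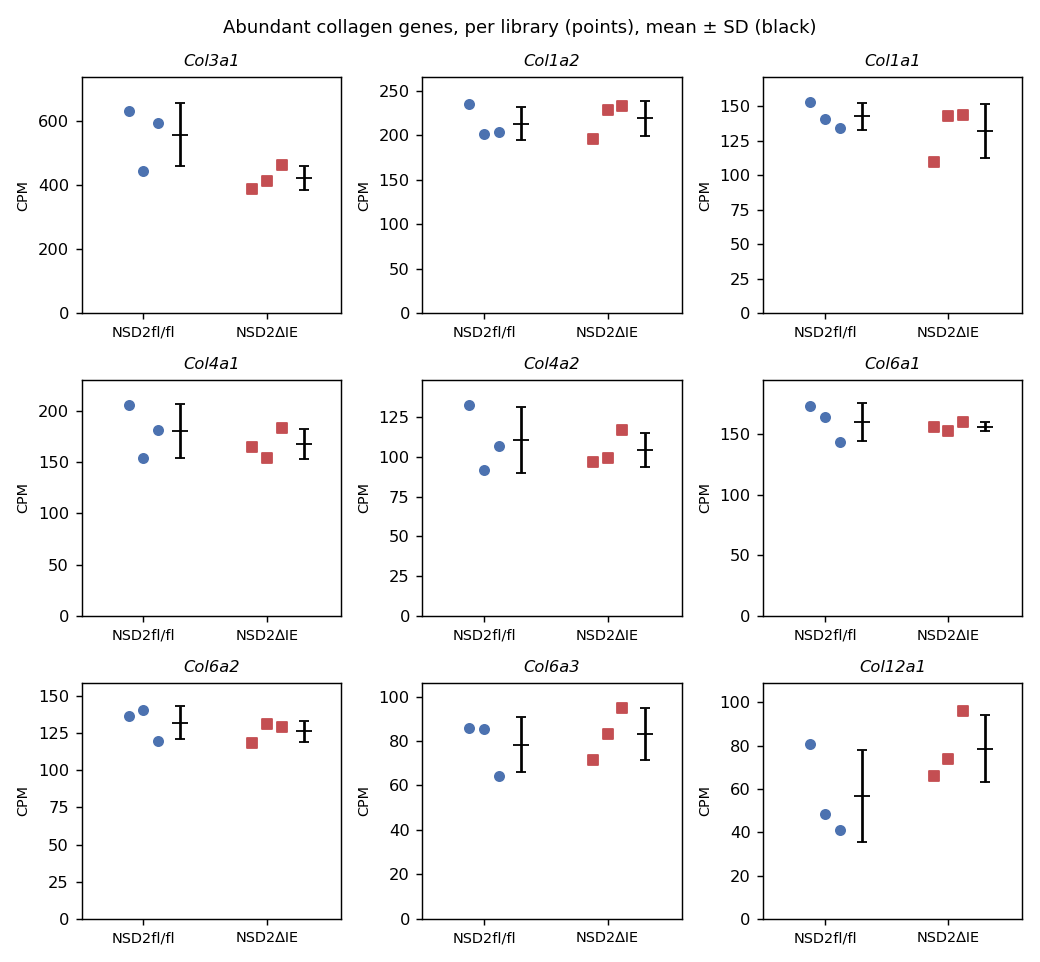
CPM of 9 abundant collagen genes in each library, with the mean ± SD of each group in black and axes that start at 0. In every panel the points of the groups overlap. Col3a1 lies between 444.5 and 632 CPM in NSD2fl/fl and between 388.7 and 462.9 CPM in NSD2∆IE.

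None of the 6 basement membrane genes passed the threshold in either direction. Col4a1 and Col4a2 encode the chains of the type IV network found in nearly all basement membranes. Col4a1 had 206, 154 and 181 CPM in the NSD2fl/fl libraries and 165, 154 and 184 CPM in the NSD2∆IE libraries, and Col4a2 had 133, 92.1 and 107 CPM in the NSD2fl/fl libraries and 97.1, 99.3 and 117 CPM in the NSD2∆IE libraries. Both sets of ranges overlapped, and NSD2fl/fl replicate 1 was the highest for both genes. The log2 ratios were -0.11 ± 0.146 (SE) and -0.083 ± 0.161 (SE), with adjusted p-values of 0.811 and 0.867, and both turned positive with library totals alone and in both fits of log2 FPKM. These genes are transcribed away from each other on chromosome 8, and the RefSeq transcripts whose starts were used here overlap by 22 bases (chr8:11312805-11312826). Whether the counting used strand was not stated, so reads in that stretch may belong to either gene. Col4a5 and Col4a6, a like pair whose RefSeq starts used here lie 1342 bases apart on chromosome X, encode chains of basement membranes around smooth muscle. Col4a5 had 19.7, 20.5 and 11.96 CPM in the NSD2fl/fl libraries and 18.3, 15.01 and 15.7 CPM in the NSD2∆IE libraries. Col4a6 had 12.5, 11.6 and 5.67 CPM in the NSD2fl/fl libraries and 13.6, 11.9 and 11.1 CPM in the NSD2∆IE libraries. In both genes NSD2fl/fl replicate 3 was the lowest library and the groups overlapped, with log2 ratios of -0.089 ± 0.225 (SE, adjusted p = 0.902) and 0.30 ± 0.301 (SE, adjusted p = 0.743). The sign of Col4a5 also turned with the scalings named for Col4a1. Col4a3 and Col4a4, the chains of the kidney glomerulus, had 2 to 15 and 6 to 18 counts, so a difference of moderate size was not detectable at this depth.

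Among the FACIT genes, Col14a1 and Col9a3 were higher in NSD2∆IE, and 6 of the 7 tested had log2 ratios above 0, as did 43.7% of all genes. Col14a1 (chr15:55307644-55520803), whose product binds the surface of type I fibrils, had 38.6, 22.2 and 32.9 CPM in the NSD2fl/fl libraries and 51.4, 56.1 and 48.3 CPM in the NSD2∆IE libraries. No NSD2∆IE value fell within the NSD2fl/fl range, and NSD2fl/fl replicate 2 was the lowest library. The means were 31.3 ± 8.32 CPM in NSD2fl/fl and 51.97 ± 3.93 CPM in NSD2∆IE (SD, n = 3 per group), a 1.66-fold difference and a log2 ratio of 0.73 ± 0.205 (SE, unadjusted p = 0.00939, edgeR adjusted p = 0.312). It kept an unadjusted p under 0.05 in all 16 alternatives, and its adjusted p ranged from 0.0547 with DESeq2 to 0.99 without NSD2∆IE replicate 3.

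Col9a3, a chain of type IX collagen best known from cartilage, had 0.234, 0.395 and 0.196 CPM in the NSD2fl/fl libraries and 0.353, 0.832 and 0.843 CPM in the NSD2∆IE libraries, from 7 to 35 counts. NSD2∆IE replicate 1 lay among the controls, and the log2 ratio, 1.29 ± 0.511 (SE, unadjusted p = 0.0405, adjusted p = 0.426), lost its unadjusted call in 7 of 16 alternatives. Col9a2, its partner chain, had 9 counts in NSD2fl/fl replicate 2 and 75 to 172 in the others. Its log2 ratio was 0.98 ± 0.746 (SE, adjusted p = 0.666). The groups were separated as higher in CPM, as were 11.4% of all genes, but by almost nothing. NSD2fl/fl replicate 1 had 3.478 CPM and NSD2∆IE replicate 2 had 3.480 CPM. Col12a1, a FACIT collagen of dense connective tissue, had 80.7, 48.5 and 40.95 CPM in the NSD2fl/fl libraries and 65.9, 74.02 and 96.03 CPM in the NSD2∆IE libraries. NSD2fl/fl replicate 1 lay within the NSD2∆IE range, and the log2 ratio, 0.47 ± 0.276 (SE, adjusted p = 0.583), was 0.81 without that library, at an unadjusted p of 0.00721. Col16a1, found at fibrils and near basement membranes, had 44.9, 19.9 and 30.7 CPM in the NSD2fl/fl libraries and 43.2, 31.7 and 36.98 CPM in the NSD2∆IE libraries, and its groups overlapped. Col16a1, Col20a1 and Col22a1 had log2 ratios of 0.23, 0.20 and -0.36, with adjusted p-values of at least 0.757. Col9a1 and Col19a1 had at most 4 and 3 counts and were not tested.

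**Figure D4:**
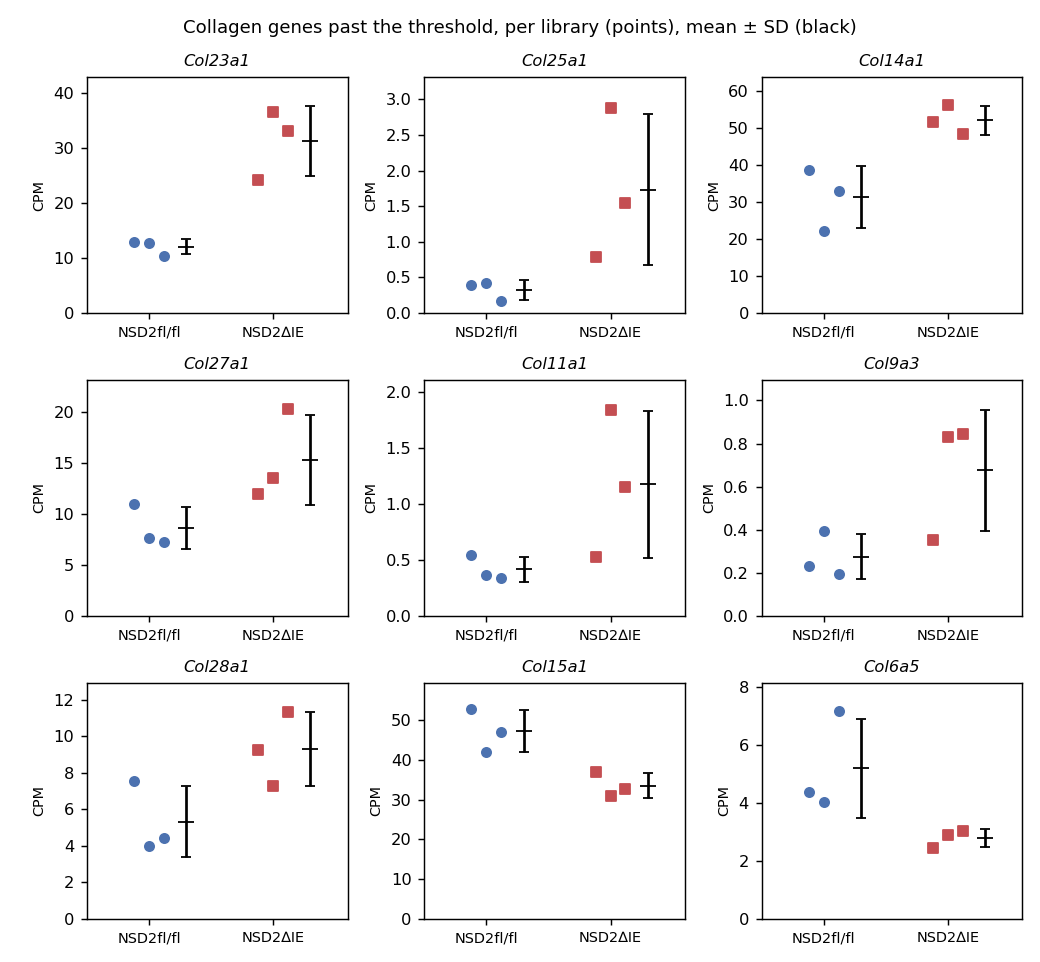
CPM of the 9 collagen genes past the unadjusted threshold in each library, with the mean ± SD of each group in black and axes that start at 0. Col23a1, Col25a1, Col14a1, Col27a1, Col15a1 and Col6a5 show no overlap between the groups, whereas in Col11a1, Col9a3 and Col28a1 at least 1 library of a group lies within the range of the other.

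Of the beaded filament genes, Col6a5 was lower in NSD2∆IE and the abundant chains Col6a1, Col6a2 and Col6a3 did not pass the threshold. Col6a1 had 173, 164 and 143 CPM in the NSD2fl/fl libraries and 155, 152 and 159.6 CPM in the NSD2∆IE libraries. Col6a2 had 136, 140.4 and 119.6 CPM in the NSD2fl/fl libraries and 118, 131 and 129 CPM in the NSD2∆IE libraries. Col6a3 had 85.9, 85.2 and 64.1 CPM in the NSD2fl/fl libraries and 71.4, 82.9 and 94.9 CPM in the NSD2∆IE libraries. In all 3 genes NSD2fl/fl replicate 3 was the lowest control and the groups overlapped. Their log2 ratios were -0.037 ± 0.114, -0.066 ± 0.112 and 0.084 ± 0.163 (SE), with adjusted p-values of at least 0.848. Those of Col6a1 and Col6a2 turned positive when upper-quartile factors or library totals replaced TMM, and in both fits of log2 FPKM, and that of Col6a3 turned negative with the principal component split.

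Col6a5 (chr9:105856070-105962463) encodes a chain that can take the place of the alpha3 chain in type VI collagen. It had 4.36, 4.04 and 7.16 CPM in the NSD2fl/fl libraries and 2.45, 2.88 and 3.04 CPM in the NSD2∆IE libraries. Every NSD2∆IE value lay below every NSD2fl/fl value, which held for 7.28% of all genes, and NSD2fl/fl replicate 3 stood above the other controls. The means were 5.19 ± 1.72 CPM in NSD2fl/fl and 2.79 ± 0.305 CPM in NSD2∆IE (SD, n = 3 per group), a log2 ratio of -0.90 ± 0.282 (SE, unadjusted p = 0.0161, edgeR adjusted p = 0.339). Without NSD2fl/fl replicate 3 the log2 ratio was -0.59 (unadjusted p = 0.0516), and without NSD2∆IE replicate 1 it was -0.80 (unadjusted p = 0.0549). Col6a4, its neighbour on chromosome 9, ranged from 10.6 to 40.6 CPM in NSD2fl/fl alone, with a log2 ratio of 0.028 ± 0.498 (SE), and Col6a6, also there, had at most 3 counts.

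The multiplexins Col15a1 and Col18a1 encode collagens of the basement membrane zone that carry heparan or chondroitin sulphate chains. Col15a1 (chr4:47207655-47313167) had 52.9, 42.1 and 46.96 CPM in the NSD2fl/fl libraries and 37.02, 31.05 and 32.7 CPM in the NSD2∆IE libraries. All 3 NSD2∆IE values were below the lowest NSD2fl/fl value. The means were 47.3 ± 5.39 CPM in NSD2fl/fl and 33.6 ± 3.09 CPM in NSD2∆IE (SD, n = 3 per group), a 1.41-fold difference and a log2 ratio of -0.50 ± 0.128 (SE, unadjusted p = 0.00659, edgeR adjusted p = 0.303). Its log2 ratio ranged from -0.57 to -0.41 with each library left out, and it lost the unadjusted call in 2 of 16 alternatives, both fits of log2 FPKM. Its adjusted p was 0.0566 with DESeq2 and at most 0.99 over the alternatives (without NSD2∆IE replicate 3). Col18a1, the source of endostatin, had a log2 ratio of -0.054 ± 0.130 (SE, adjusted p = 0.898).

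Col28a1 (chr6:7997100-8193709), whose product is known from basement membranes around peripheral nerves, had 7.55, 3.98 and 4.41 CPM in the NSD2fl/fl libraries and 9.23, 7.29 and 11.3 CPM in the NSD2∆IE libraries. NSD2fl/fl replicate 1 lay within the NSD2∆IE range and the other controls below it. Its log2 ratio was 0.80 ± 0.303 (SE, unadjusted p = 0.0338, adjusted p = 0.412), and 4 of the 6 fits that left out a library lost the unadjusted call. Of the short-chain collagens, Col8a1, made by vessels and smooth muscle, had 16.1, 6.84 and 6.40 CPM in the NSD2fl/fl libraries and 19.3, 13.5 and 19.2 CPM in the NSD2∆IE libraries, with an overlap at NSD2fl/fl replicate 1. Its log2 ratio was 0.82 ± 0.384 (SE, unadjusted p = 0.0703), and that of Col8a2 was -0.017. Col7a1, the anchoring fibril collagen of squamous epithelium, had 9 to 55 counts, with NSD2fl/fl replicate 1 far above the rest. Its log2 ratio was -1.31 ± 0.590 (SE, unadjusted p = 0.0629). The groups were separated as lower in CPM, as were 7.28% of all genes, but only narrowly. NSD2fl/fl replicate 2 had 0.452 CPM (16 counts) and NSD2∆IE replicate 1 had 0.429 CPM (17 counts), so the raw counts overlapped. Col10a1, a marker of hypertrophic cartilage, had at most 2 counts and Col26a1 at most 11, and neither was tested.

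**Figure D5:**
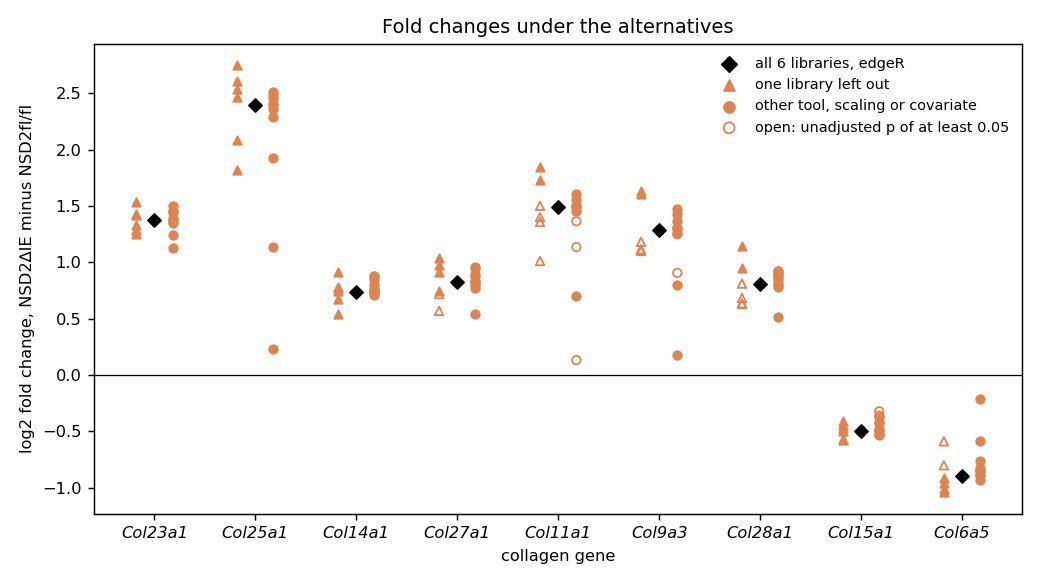
Log2 ratio (NSD2∆IE minus NSD2fl/fl) of the 9 collagen genes past the unadjusted threshold, with all 6 libraries (black diamonds), with 1 library left out (triangles) and with another tool, scaling or covariate (circles), filled where the unadjusted p was under 0.05. Every point keeps its sign, and Col23a1, Col25a1 and Col14a1 are filled throughout.

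Chains of the same collagen type, and Col3a1 with Col1a1 of types III and I, were compared within each library as a ratio of FPKM, which does not depend on scaling between libraries. The Col4a1/Col4a2 ratio ranged from 1.51 to 1.66 and the Col6a1/Col6a2 ratio from 1.76 to 1.99 over all 6 libraries, and the groups overlapped in both. The Col1a1/Col1a2 ratio was 0.574, 0.616 and 0.580 in NSD2fl/fl and 0.493, 0.552 and 0.545 in NSD2∆IE. Every NSD2∆IE ratio lay below every NSD2fl/fl ratio, a log2 difference of -0.16. The two-sided exact permutation p was 0.1, the smallest that 3 against 3 libraries allow, and 0.6 adjusted over the 6 ratios compared. The Col3a1/Col1a1 ratio was 4.40, 3.37 and 4.73 in NSD2fl/fl and 3.78, 3.07 and 3.43 in NSD2∆IE, and NSD2fl/fl replicate 2 lay below the highest NSD2∆IE library (exact permutation p = 0.3). The Col6a3/Col6a1 ratio ranged from 0.164 to 0.218 and the Col5a1/Col5a2 ratio from 0.563 to 0.898, with exact permutation p-values of 0.4 and 0.8. In all libraries type I alpha1 mRNA was thus below alpha2 mRNA per gene length, whereas the type I protein, as background, holds more alpha1 than alpha2 chains.

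The genes that fold, cut, bind and break down collagen were counted in the same fit, in which 8.05% of all genes were past the unadjusted threshold as higher and 2.21% as lower. Of the 21 tested genes for folding and secretion, P3h4 was higher, P4ha1 was lower and 19 did not pass the threshold, so that 4.76% were past it in each direction. P4ha1, a catalytic subunit of the prolyl 4-hydroxylase that stabilises the helix, had a log2 ratio of -0.69 ± 0.133 (SE, adjusted p = 0.302), and P3h4, a partner of lysyl hydroxylation, of 0.80 ± 0.164 (SE, adjusted p = 0.302). Of 13 tested genes for procollagen processing and cross-linking, 4 were higher and 1 was lower. Pcolce2, an enhancer of C-propeptide cleavage, had 1.51 ± 0.386 (SE, adjusted p = 0.303), Loxl3, a lysyl oxidase family member, 0.90 ± 0.268 (SE, adjusted p = 0.322), and Tll1, a tolloid protease, 0.92 ± 0.313 (SE, adjusted p = 0.368). Of 10 tested collagen receptors, 3 were higher and 0 lower. These were Ddr2, a kinase activated by fibrillar collagen, with 0.60 ± 0.142 (SE, adjusted p = 0.302), Mrc2, an endocytic receptor, with 0.66 ± 0.195 (SE, adjusted p = 0.321), and Itga1, an integrin subunit, with 0.66 ± 0.202 (SE, adjusted p = 0.328). Of 12 tested genes of breakdown, the inhibitors Timp3 and Timp2 were higher, at 0.51 ± 0.135 (SE, adjusted p = 0.312) and 0.60 ± 0.167 (SE, adjusted p = 0.312), and 0 were lower. The median log2 ratios of these 4 lists were 0.12, 0.20, 0.42 and 0.10, beside -0.041 over all genes.

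Of the 7 pathway lists, that of fibril-associated proteins had the most genes past the threshold, with 7 of 15 tested higher and 0 lower, beside 8.05% and 2.21% of all genes. Aebp1, a collagen-binding carboxypeptidase-like protein, had a log2 ratio of 0.89 ± 0.133 (SE, adjusted p = 0.302), Dpt of 0.74 ± 0.151 (SE, adjusted p = 0.302) and Lum, a proteoglycan of collagen fibrils, of 1.08 ± 0.244 (SE, adjusted p = 0.302). The median log2 ratio of this list was 0.43. Among 16 laminins and other basement membrane genes 3 were higher and 0 lower, led by Lama4 at 0.37 ± 0.137 (SE, adjusted p = 0.406), Lama5 at 0.53 ± 0.214 (SE, adjusted p = 0.432) and Lamb2 at 0.45 ± 0.183 (SE, adjusted p = 0.432). Among 16 tested genes of the TGF-beta pathway, which drives collagen synthesis in fibroblasts, 4 were higher and 0 lower, with Ltbp1 at 0.60 ± 0.123 (SE, adjusted p = 0.302), Tgfbr3 at 0.50 ± 0.142 (SE, adjusted p = 0.312) and Ltbp3 at 0.56 ± 0.205 (SE, adjusted p = 0.394). The medians of these lists were 0.19 and 0.14. The edgeR adjusted p-values in the 7 lists were 0.302 or more. With DESeq2, 4 fibril-associated genes, 2 folding genes and 1 gene each of processing, receptors, breakdown and the TGF-beta pathway had an adjusted p under 0.05, and 0 laminin and basement membrane genes did, where 2.79% of all genes were called.

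Markers of several stromal cell types were also higher in NSD2∆IE, beside the 7 collagen genes that were higher. Over all genes, 8.05% were past the unadjusted threshold as higher, 2.21% as lower, and 11.4% were separated between the groups as higher. With edgeR, 0 markers on the 8 lists had an adjusted p under 0.05, and with DESeq2 6 neuron and glia, 4 fibroblast, 3 smooth muscle, 2 adipocyte and 1 epithelial marker did. Smooth muscle markers were higher for 9 of 10 genes, with summed levels of 1679.9 to 4426 CPM in NSD2fl/fl and 5524 to 11882 CPM in NSD2∆IE. Markers of enteric neurons and glia were higher for 10 of 10 genes, at 57.7 to 102 CPM in NSD2fl/fl and 133 to 169 CPM in NSD2∆IE. Fibroblast markers, with collagen genes left out, were higher for 6 of 10, at 837 to 929 CPM in NSD2fl/fl and 1144 to 1288 CPM in NSD2∆IE. Of these 6, 3 (Dcn, Lum and Dpt) are also on the list of fibril-associated proteins. The remaining fibroblast markers did not pass the threshold. Pdgfra and Pdgfrb had log2 ratios of -0.089 and -0.12, and Pi16 and Mfap5 of 0.70 and 0.26. The sums of the smooth muscle, neuron and glia, and fibroblast lists did not overlap between the groups. Of the 37 collagen genes tested, 5 were separated as higher and 3 as lower, beside 11.4% and 7.28% of all genes. The rest overlapped, Col1a1, Col1a2, Col6a1 and Col4a1 among them. Adipocyte markers were higher for 4 of 9 tested genes, at 123 to 263 CPM in NSD2fl/fl and 216 to 283 CPM in NSD2∆IE, with Adipoq, Plin1, Lep and Retn at 0 counts in at least 1 library. The 10 endothelial markers held 1 that was higher (218 to 256 CPM in NSD2fl/fl and 239 to 272 CPM in NSD2∆IE), the 10 macrophage markers 1 (575 to 846 CPM in NSD2fl/fl and 691 to 837 CPM in NSD2∆IE) and the 3 tested mesothelial markers 0, with Lrrn4, Wt1 and Bnc1 at 0 in at least 1 library (2.05 to 10.5 CPM in NSD2fl/fl and 3.25 to 3.33 CPM in NSD2∆IE). Of the 10 epithelial markers 1 was lower, Elf3, with sums of 10396 to 18183 CPM in NSD2fl/fl and 10441 to 11581 CPM in NSD2∆IE. The median log2 ratio was 1.22 for smooth muscle, 1.00 for neuron and glia, 0.56 for fibroblast, 2.30 for adipocyte, 0.23 for endothelial, 0.15 for macrophage, -0.97 for mesothelial and -0.31 for epithelial markers. The part of these cell types in the collagen differences was not tested.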

How the data were processed

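The members and gene lists were chosen with earlier results of these data known. Total RNA was extracted with TRIzol, and quality was read on a NanoDrop and a Bioanalyzer. The authors deposited whole-number read counts per gene symbol and FPKM values for each library, and the submitters' processing notes name fastp, HISAT2, HTSeq, R 3.2.0 and the build mm10. Annotation and use of strand are not given in the sources used here. For 17863 genes, counts and FPKM implied 1 whole-number length per gene in all 6 libraries, to within 0.0638 bases. Totals were 38041832 to 38604680 counts, and a gene at 0 counts could still be present at up to 0.0789 CPM (3 counts, before TMM scaling), a limit for counting error only.

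All 24517 genes were fitted with edgeR 4.0.16 (R 4.3.3): filterByExpr, TMM factors, glmQLFit and glmQLFTest, two-sided, without covariates, with Benjamini-Hochberg adjustment over the 16347 genes left. SEs were derived from the log2 fold change and the F statistic. The unadjusted threshold was p under 0.05 with a log2 fold change (log2 ratio) beyond 0.32. Pairs of libraries gave a chi-square per degree of freedom of at least 35.46 for genes summing to 20 counts or more, so none was a repeat. Values in each library are given for members with an unadjusted p under 0.05, the 3 of highest mean FPKM in 5 classes, Col23a1, Col4a5 and Col4a6. Those of Col8a1, added after its values were seen, are also given. From each pathway list up to 3 genes of smallest p under 0.05 are named, with Aebp1. Alternatives used RLE or upper-quartile factors, library totals alone, DESeq2 1.42.0, limma 3.58.1 (voom with quality weights, or log2 FPKM with 1 or 0.1 added), no filter, a replicate block, the principal component split, a fold over 1.5, and each library left out. The fit was tested on simulated counts. At an adjusted p under 0.05 it found 77 of 100 4-fold changes and 18 of 100 2-fold changes, with 10 false calls. Gene positions and upstream sequence are from RefSeq, GRCm38.p6, the assembly of mm10. Ratios were tested with scipy 1.17.1. The same-numbered libraries had correlations of their deviations from the group means of 0.501, 0.643 and -0.166.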

Additional observations from a re-analysis of the deposited data

How the results depend on the processing

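The 9 genes past the unadjusted threshold kept their sign in all 16 alternatives. The number of collagen genes with an adjusted p under 0.05 rose from 0 to 2 with DESeq2 and was 0 in the fits without 1 library. The number higher (7) ranged from 3 to 8 in those fits, and was 5 to 8 in the other alternatives. The number lower (2) was 0 with log2(FPKM + 1), 1 with log2(FPKM + 0.1) and 1 at a fold over 1.5, which is stricter by construction. It was 3 with DESeq2, limma-voom, no filter and the replicate block, and ranged from 1 to 5 without 1 library. Over all genes, the number lower (361) was 200 when upper-quartile factors and 142 when library totals replaced TMM, 138 with 0.1 and 108 with 1 added to FPKM, 594 with limma-voom, 607 without a filter, 602 with the block and 543 with the principal component split. It ranged from 146 to 747 without 1 library, and the number higher (1316) from 675 to 1720. The number with an adjusted p under 0.05 (5) was 455 with DESeq2 and 3 to 5 without 1 library. The median of all genes moved by 0.13 under library totals, and by 0.14 and 0.10 when 0.1 and 1 were added to FPKM.

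The replicate number as a block gave 6 higher and 3 lower collagen genes, where Col11a1 and Col9a3 lost and Col8a1 and Col7a1 gained the call. Of all genes, 8.94% were higher and 3.68% lower with the block. The deviations of same-numbered libraries had correlations of 0.501, 0.643 and -0.166. So few values cannot decide whether the numbers pair the libraries, and the labels do not say.

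Among the 22 members followed through the alternatives, signs turned only where the log2 fold change lay between -0.11 and 0.23. The log2 fold change became 0.0035 for Col6a2 and 0.032 for Col6a1 under upper-quartile scaling. Under library totals it was 0.016 for Col1a1, 0.016 for Col4a1, 0.038 for Col4a2, 0.033 for Col4a5, 0.061 for Col6a2 and 0.088 for Col6a1. After log2(FPKM + 1) it was 0.0088 for Col1a1, 0.026 for Col4a1, 0.052 for Col4a2, 0.044 for Col4a5, 0.061 for Col6a2 and 0.093 for Col6a1. With log2(FPKM + 0.1) it was 0.0089 for Col1a1, 0.027 for Col4a1, 0.055 for Col4a2, 0.069 for Col4a5, 0.063 for Col6a2 and 0.095 for Col6a1. It was -0.0039 for Col6a3 with the principal component split. Without 1 library, it ranged from -0.17 to 0.015 for Col1a1, -0.0060 to 0.12 for Col1a2, -0.20 to 0.066 for Col4a2, -0.29 to 0.040 for Col4a5 (the last without NSD2fl/fl replicate 2), -0.11 to 0.021 for Col6a1, -0.039 to 0.19 for Col6a3 and -0.025 to 0.56 for Col16a1. The log2 differences of the chain ratios ranged, without 1 library, from -0.014 to 0.077 for Col6a1/Col6a2 and from -0.091 to 0.25 for Col5a1/Col5a2, an alternative chosen after seeing the data. The causes were not tested. For Col11a1, Col9a3, Col25a1 and Col7a1 the low counts limit precision.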
